A study of Sus scrofa with 4 samples.

Results

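Heart tissue from the border zone of a myocardial infarction was compared between minipigs that received myoblasts and control minipigs. The infarction was made in female Bama minipigs by permanent ligation of the left circumflex coronary artery, and human skeletal myoblasts were then injected. The sample records give the infarct and its border zone as the site, whereas the study's text names the border zone. RNA of each tissue was measured on 1 Affymetrix Porcine Genome Array, so the comparison rests on 2 of the 4 arrays in the series, 1 with myoblasts and 1 of control. The border zone is the surviving muscle next to the infarct. It holds heart muscle cells together with the fibroblasts, vessels and immune cells that take part in scar formation.

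The myoblast group also received the immunosuppressant cyclosporin A, and its cells were given in culture medium. The study has a control treatment of medium with cyclosporin and a further infarct group that got neither, whereas the array labels call the control tissue untreated. Which of these the control array stands for is therefore not settled, and the effect of cyclosporin and medium cannot be told apart from that of the cells if the control had neither. The number of minipigs behind an array and the time of sampling are not given in the sources used here. The array carries pig probe sets, and how far transcripts of the human myoblasts bind to them was not tested.

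Of the 23999 probe sets that are not array controls, 12373 (51.6%) had a mean signal of at least 128 units over the border zone arrays and make up the comparison, and 11626 were below it. A probe set is a group of short probes read together as the signal of 1 transcript, in arbitrary units. At the edge of the minimum, a probe set just outside had signals of 142.8 units with myoblasts and 113.2 in control, and one just inside had 136.8 and 119.2 units. Among the 12373, 6115 carry a single gene symbol, 129 carry several and 6129 none. The named ones stand for 4941 genes, each represented here by its brightest probe set. With 1 array a side there is no spread between minipigs and no test, so a difference is called at 2-fold, and every value below describes these 2 arrays.

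The arrays themselves were alike in scale, with a trimmed mean signal of 500.1 units on each. They were not alike in all controls. The 28S ribosomal RNA probe set read 8477 units with myoblasts and 15770 units in control. Of 36 control probe sets for RNA spiked in before labelling, 26 were at least 2-fold higher on the myoblast array, with a median ratio of 2.28. The 27 hybridization controls had ratios of 0.880 to 1.10. The ratio of 3' to 5' signal, which rises with RNA degradation, was 1.73 with myoblasts and 1.55 in control for GAPDH, 24.6 and 24.9 for actin, and 3.01 and 4.17 for EF1a. The part of these differences in the results below was not tested.

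Most genes of the border zone had similar signals on both arrays. The median log2 ratio of myoblast over control was 0.02, and 10176 probe sets (82.2%) lay within 1.5-fold. At least 2-fold higher with myoblasts were 331 of the 12373 probe sets (2.68%), and at least 2-fold lower were 283 (2.29%). By gene, 114 of 4941 (2.31%) were higher and 86 (1.74%) lower. Beyond 4-fold lay 31 probe sets on the higher side and 23 on the lower side.

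A probe set that reached the minimum through 1 array alone could do so only by differing between them, which held for 742 of the 12373. Where both arrays were at 128 units or more, 225 of 11631 probe sets (1.93%) were higher and 179 (1.54%) lower. The 2-fold counts were therefore also set against a pair of arrays without myoblasts. Between the control arrays of the border and the infarct zone, 77 of 12290 probe sets (0.627%) were at least 2-fold apart. That pair differs in zone, so it is a guide to precision and not a replicate. Its arrays were also closer in some array controls than the border zone pair. Their 28S signals were 15770 and 15983 units and their EF1a ratios of 3' to 5' signal 4.17 and 4.13. Whether the pair understates the scatter of the border zone comparison was not tested.

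**Figure D1:**
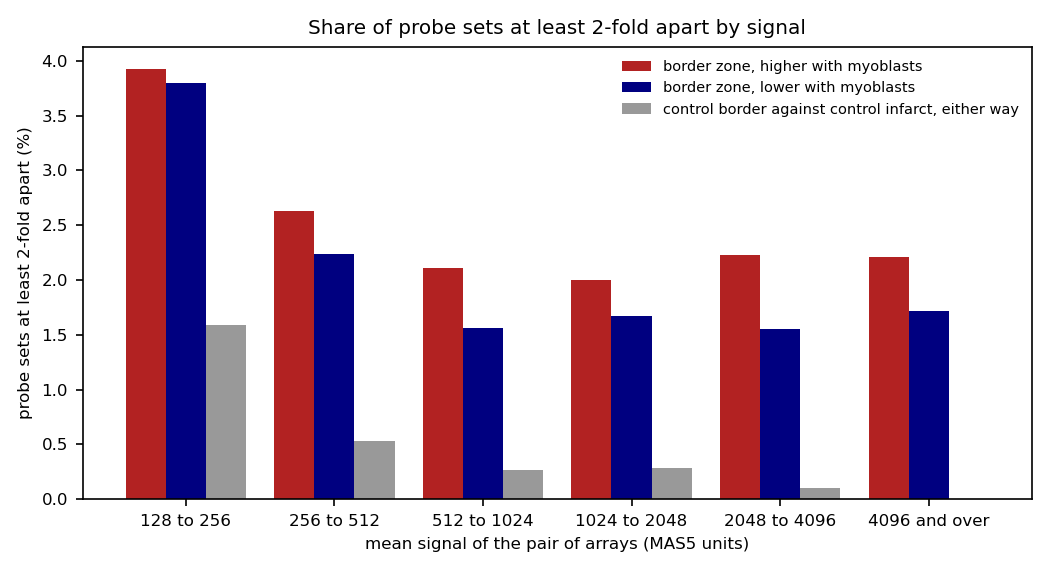
Percentage of probe sets whose signals differed 2-fold or more (y, from 0), by mean signal of the arrays compared, in MAS5 units. Red and blue bars are the border zone comparison and grey bars the pair of control arrays. Red and blue together are 7.73% from 128 to 256 units and 3.94% from 4096 units, where none of the 831 probe sets of the control pair was 2-fold apart.

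**Figure D2:**
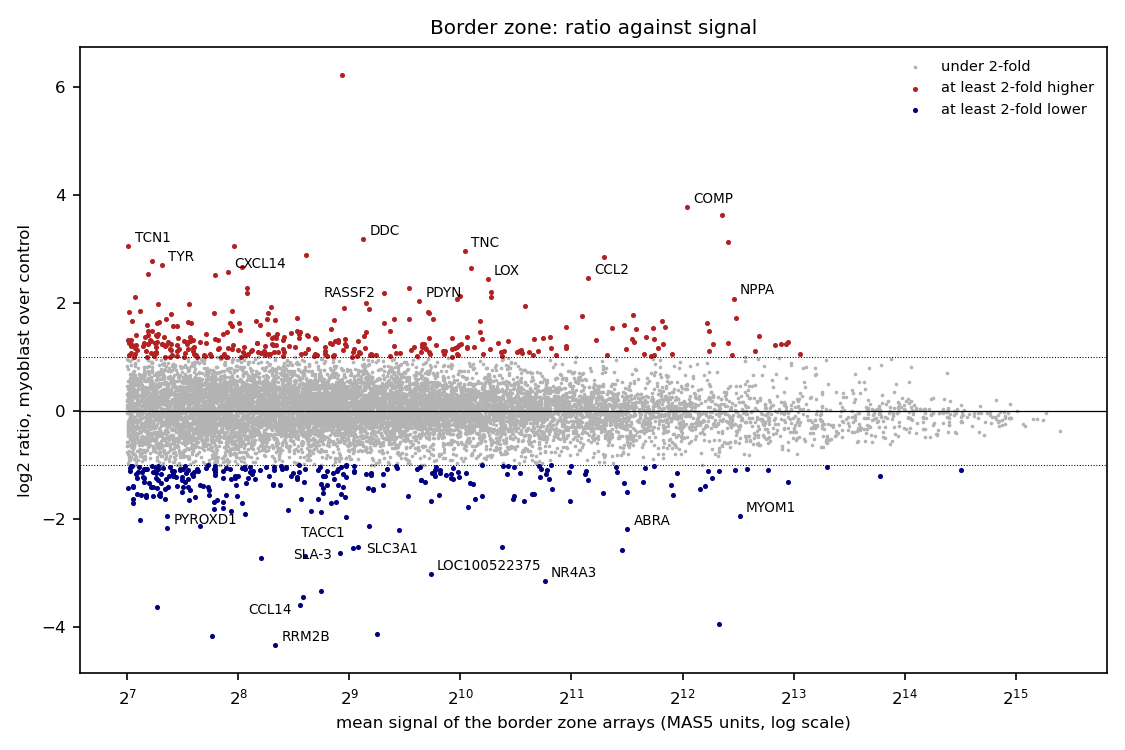
Log2 ratio of myoblast over control (y) against mean border zone signal (x, log scale) for the 12373 probe sets, each a point. Red points are at least 2-fold higher and blue points at least 2-fold lower, and dotted lines mark 2-fold. COMP lies furthest up and RRM2B furthest down among named genes, while one point without a gene symbol lies above log2 6.

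The largest rise of a named gene in the border zone was that of a cartilage and tendon matrix protein. COMP, which binds collagen fibrils, read 7838 units with myoblasts and 571 units in control, 13.7-fold higher. TNC encodes tenascin-C, a matrix protein made during wound repair, and read 1866 and 240 units. LOX, the enzyme that crosslinks collagen and elastin, read 2051 and 378 units. All 3 are genes of the extracellular matrix, the material laid down as an infarct scars.

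Among the other 12 of the 15 largest rises were 2 chemokines. The chemokine CCL2, which draws monocytes into tissue, read 3837 units with myoblasts and 695 in control, 5.52-fold higher. CXCL14 read 411 and 69.1 units on its brightest probe set, 5.95-fold higher, and 168 and 109 units on the other, 1.54-fold higher. ALOX5AP, needed for leukotriene synthesis in white blood cells, read 783 and 210 units. A pair of further genes had low signals in control. TCN1, a vitamin B12 carrier of neutrophil granules, read 230 and 27.8 units, and FCN2, a lectin that starts the complement cascade, read 218 and 50.6 units.

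The remaining 7 rises were in genes of other roles. DDC, which makes dopamine and serotonin from their precursors, read 1006 units with myoblasts and 111 in control, 9.07-fold higher. NPPA, the atrial natriuretic peptide, read 9119 and 2153 units. FBP1, an enzyme of gluconeogenesis, read 2432 and 628 units. TYR, the melanin-forming tyrosinase, and PDYN, an opioid peptide precursor, were also among the 15. TYR read 275 and 42.1 units, and PDYN 1273 and 309 units. RASSF2, a Ras-binding protein, read 1040 and 229 units, and LOC100510975, which has no gene name, read 2013 and 464 units. Of the 15 rises, those of DDC, TCN1, TYR, CXCL14 and FCN2 had a control signal under 128 units, so they entered the comparison through the myoblast array.

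Among the 15 largest falls, the biggest was RRM2B. This p53-induced subunit of ribonucleotide reductase, which supplies DNA building blocks, read 30.6 units with myoblasts and 615 units in control, 20.1-fold lower. CCL14, a chemokine of monocytes, read 57.6 and 696 units. SLA-3, a classical MHC class I gene, read 135 and 831 units. These genes differ in function, and each had a myoblast signal close to or under the 128-unit minimum.

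Muscle and transcription genes followed. NR4A3, a nuclear receptor induced within minutes of stimulation, read 350 units with myoblasts and 3115 units in control, 8.89-fold lower. ABRA, an actin-binding protein of striated muscle, read 1050 and 4758 units, and MYOM1, a protein of the sarcomere's M-band, read 2403 and 9288 units. GATA3, a transcription factor best known in T cells, read 105 and 337 units. The 3 genes named before GATA3 were well above the minimum on both arrays.

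Of the other large falls, A2M encodes a broad protease inhibitor of plasma and read 206 units with myoblasts and 799 in control. SLC3A1, an amino acid transporter subunit, read 162 and 919 units, and GPD1, an enzyme between glycolysis and lipid synthesis, read 96.9 and 342 units. TACC1, a protein of the spindle and centrosome, read 155 and 895 units. LOC100522375 read 186 and 1516 units, PYROXD1 60.1 and 269, FLYWCH1 75.5 and 328, and the kinase NEK3 104 and 361 units. All 4 of these were lower by 3.46-fold or more. Among the 15 falls, RRM2B, CCL14, PYROXD1, FLYWCH1, GPD1, NEK3 and GATA3 had a myoblast signal under 128 units. They entered the comparison through the control array.

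**Figure D3:**
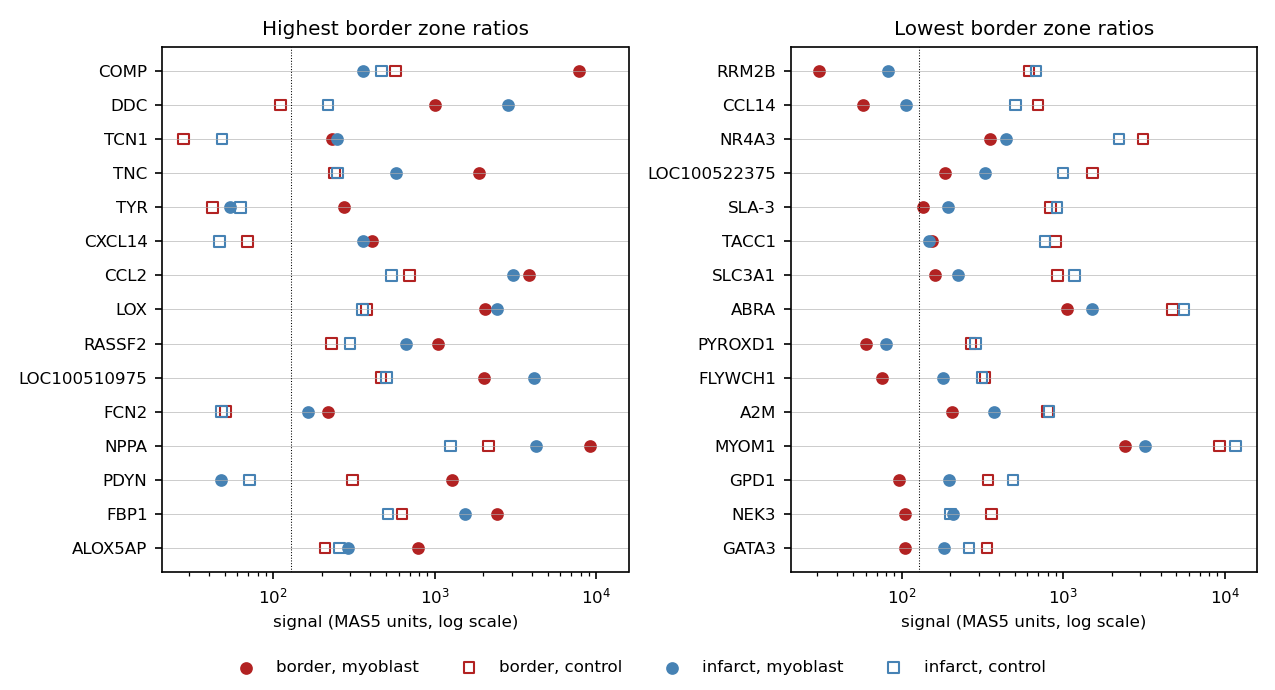
Signals (x, MAS5 units, log scale) of the 15 genes with the highest and the 15 with the lowest border zone ratio on the 4 arrays of the series. Filled circles are myoblast arrays and open squares control arrays, red for the border and blue for the infarct zone, and the dotted line marks 128 units. COMP, TYR and PDYN have a red circle far from the other marks, whereas for RRM2B, NR4A3 and MYOM1 both circles lie left of both squares.

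Of all the gene lists, one of the extracellular matrix held the most 2-fold rises. Of 19 measured genes for matricellular proteins, elastic fibres and crosslinking, 6 were at least 2-fold higher and none lower, and 17 lay above control. Their median log2 ratio was 0.53, beside 0.03 over all 4941 genes, of which 2.31% were 2-fold higher and 52.8% lay above control. Besides COMP, TNC and LOX, the 2-fold rises were in a pair of thrombospondins and a fibulin. Summed over the list, the signal was 202168 units with myoblasts and 148294 in control.

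THBS1, which activates latent TGF-beta, read 10658 units with myoblasts and 4523 units in control, 2.36-fold higher. Its other probe sets at the minimum read 911 and 227 units and 450 and 268 units, so all 3 point the same way. THBS2, its relative, read 6611 and 3047 units. FBLN1, a protein of basement membranes and elastic fibres, read 3451 and 1674 units. Among main matrix proteins of scar, periostin (POSTN) read 16608 and 9569 units and fibronectin (FN1) 26386 and 16200 units on their brightest probe sets, each under 2-fold. On the mean over their probe sets both were past 2-fold, with log2 ratios of 1.19 and 1.21, and the list then held 8 rises. SPARC and MGP had near equal signals, with log2 ratios of 0.00 and -0.02. SPP1 (osteopontin), a matrix protein also made by macrophages, had the lowest ratio of the list at 2453 and 3358 units.

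Small proteoglycans bind collagen fibrils and growth factors. On a list of small proteoglycan and hyaluronan genes, which also holds other proteoglycans, 1 of 11 was at least 2-fold higher. Above control lay 9, with a median log2 ratio of 0.40. ACAN, the large aggregating proteoglycan of cartilage, read 263 units with myoblasts and 87.7 in control. Its control signal lay under the 128-unit minimum. BGN (biglycan) read 8665 and 4456 units and PRELP 10490 and 5674 units, both just under 2-fold. HYAL2, a hyaluronan-degrading enzyme, and the syndecan SDC1 were the 2 genes below control, at 464 and 790 units and at 196 and 248 units.

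The collagens had no common direction. Of 10 at the minimum signal, 1 was at least 2-fold higher and 6 lay above control, with a median log2 ratio of 0.06. COL8A1, a short-chain collagen of vessel walls, read 5057 units with myoblasts and 1743 in control, 2.90-fold higher. Its 2 dimmer probe sets had ratios of 1.70 and 1.78. COL5A1 read 4509 and 2309 units, and COL5A2 219 and 124 units. COL3A1, a main collagen of scar, read 155 and 208 units, and COL1A2 469 and 341 units. COL15A1 read 4318 and 5166 units. No probe set carries COL1A1 as its single symbol.

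A few more matrix and fibroblast genes were 2-fold higher but belong to none of the lists and were picked after their values were seen. LOXL4, a relative of LOX, read 960 units with myoblasts and 310 in control. FNDC1, a fibronectin-domain protein, read 4284 and 1769 units. AEBP1, which binds collagen, read 4287 and 1700 units. CDH11, a cadherin of mesenchymal cells, read 2949 and 1007 units, and its other probe set at the minimum 440 and 145 units.

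Enzymes that degrade matrix and their inhibitors held a single 2-fold difference. Of 8 genes, none was 2-fold higher and 1, A2M, was 2-fold lower, with a median log2 ratio of 0.20. ADAMTS1, which cleaves proteoglycans, read 4998 units with myoblasts and 2790 in control, MMP2 read 2668 and 2324 units, and TIMP1 1185 and 1324 units. MMP9 and MMP13 were below the minimum, at 37.0 and 13.2 units and at 50.2 and 3.19 units. In TGF-beta and BMP signalling, the pathway that drives matrix synthesis, none of 11 genes was 2-fold apart and 9 lay above control. TGFB3 read 2073 and 1369 units, TGFB2 406 and 592 units and TGFB1 215 and 226 units.

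Fibroblast markers lay slightly above control. Of 14 markers, 1 (FBLN1) was at least 2-fold higher, 11 lay above control and the median log2 ratio was 0.34. FAP, a surface protease of activated fibroblasts, read 5084 units with myoblasts and 2913 in control, and S100A4 423 and 251 units. Vimentin (VIM) had a log2 ratio of -0.03 and MFAP5 read 4076 and 6418 units. Their summed signal was 148401 and 127694 units, a ratio of 1.16. Since whole tissue was measured, more cells of a type and more RNA per cell cannot be told apart. ACTA2, the smooth muscle actin that marks myofibroblasts, read 13169 and 12531 units, and none of 13 smooth muscle and pericyte markers was 2-fold apart on its brightest probe set. ACTG2, the enteric smooth muscle actin, read 6308 and 3833 units on that probe set and 1891 and 302 units on the other, so its mean over both was past 2-fold.

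**Figure D4:**
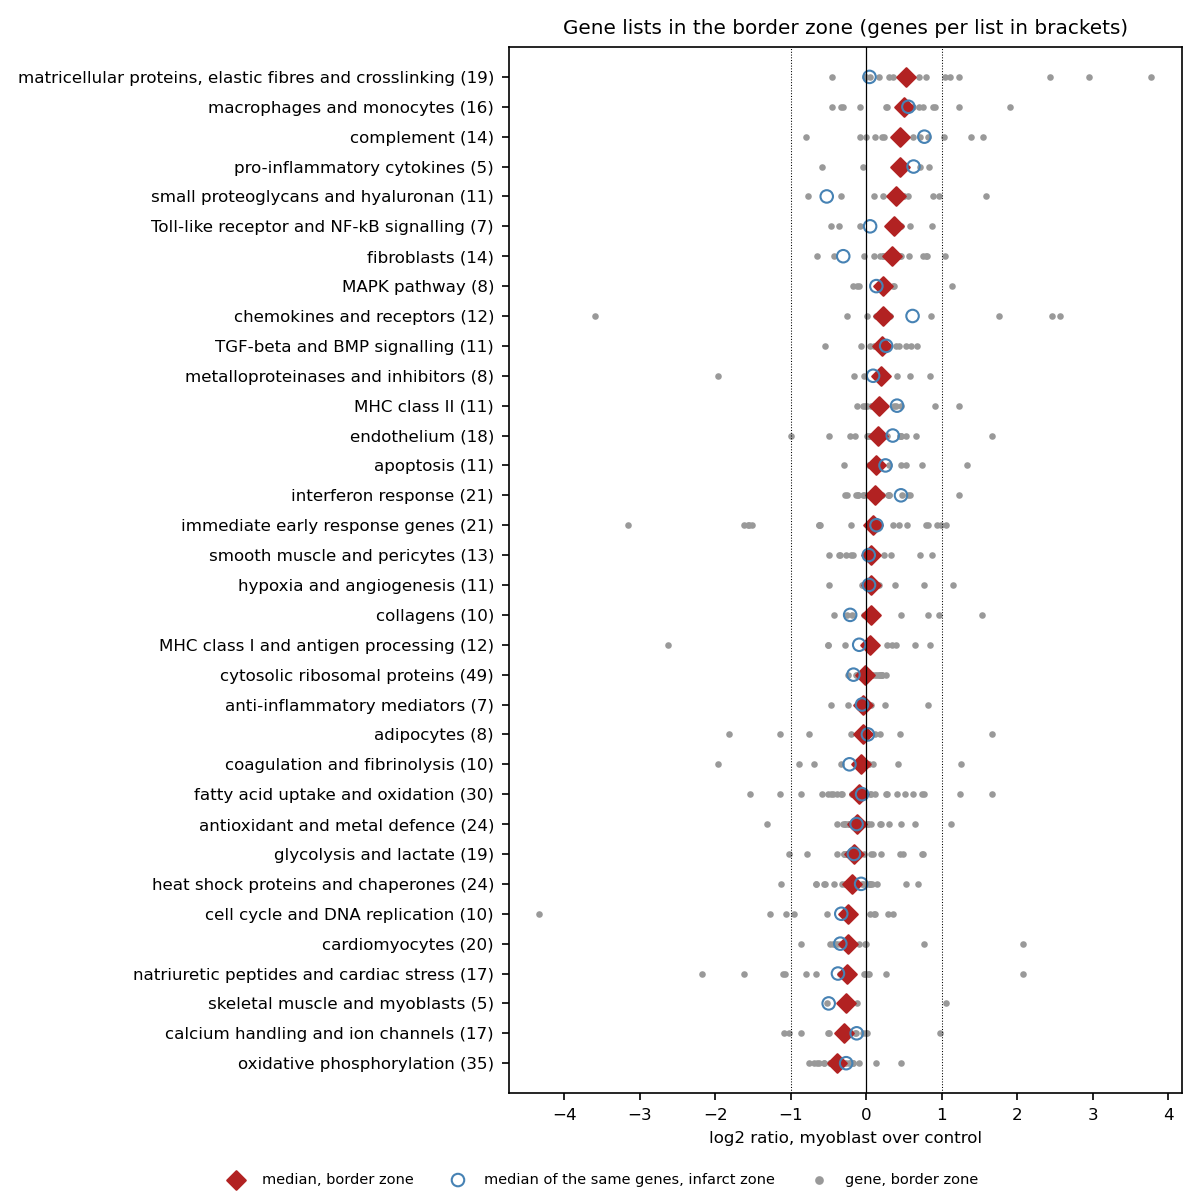
Log2 ratio of myoblast over control (x) for each list of genes (y) with at least 5 genes at the minimum signal. Grey points are genes in the border zone, red diamonds their median and open blue circles the median of the same genes in the infarct zone, with dotted lines at 2-fold. At the minimum signal and by the brightest probe set, the matricellular list has the highest border zone median, 0.53, and oxidative phosphorylation the lowest, -0.39. For small proteoglycans and hyaluronan, and for fibroblasts, the circle lies left of 0 and the diamond right of it.

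The study asked how myoblasts act on the infarcted heart, and followed its inflammatory response, in which chemokines recruit white blood cells and cytokines activate them. Of 12 chemokine and receptor genes, 3 were at least 2-fold higher and 1 lower, and 10 lay above control. Over all 4941 genes, 2.31% were higher, 1.74% lower and 52.8% above control, and these shares stand beside the counts of every list. The median log2 ratio was only 0.22, as the change was carried by few genes. Besides CCL2 and CXCL14, CXCL2, a neutrophil attractant, read 3369 units with myoblasts and 999 in control, 3.37-fold higher. CCL14 was the gene that was lower. CXCL12 and CXCL9 read 2160 and 2132 units and 273 and 326 units. CXCL8 was below the minimum, at 95.6 and 16 units.

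None of 5 measured pro-inflammatory cytokine genes at the minimum signal was 2-fold apart. IL18 read 540 units with myoblasts and 304 in control, IL15 254 and 155 units, and TNFSF10 907 and 665 units. IL1B, an early cytokine of infarction, read 107 and 161 units, and MIF 2118 and 2171 units. The cytokines most often measured in infarcts were under the minimum on both arrays, where signals scatter. TNF read 9.21 and 48.6 units, IL6 113 and 38.6 units and the anti-inflammatory IL10 89.1 and 76.5 units, and the second probe set of IL1B read 37.1 and 13.4 units, on the other side of control than the first.

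Toll-like receptors sense the debris of dying cells and signal through NF-kB. Of 7 genes of this pathway, none was 2-fold apart, and 4 lay above control. TLR4 read 451 units with myoblasts and 302 in control on the only one of its 5 probe sets at the minimum. LY96, which TLR4 needs to bind its ligand, read 1431 and 784 units, and IKBKG 272 and 196 units. TLR2 read 462 and 488 units, TOLLIP 387 and 496 units and the NF-kB inhibitor NFKBIA 2208 and 3061 units. HMGB1 and HSPD1, proteins that can act as danger signals, read 12878 and 14721 units and 7501 and 9017 units. The dimmer HMGB1 probe sets at the minimum read 5865 and 4804 units and 1337 and 1445 units, so its probe sets had no common direction.

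In the MAPK pathway, which relays stress and cytokine signals, 1 of 8 genes was at least 2-fold higher. That gene was DUSP6, a phosphatase that switches off ERK, at 1333 units with myoblasts and 605 in control. Its second probe set read 315 and 255 units, and the mean over both was under 2-fold. MAPK8 (JNK1) was below the minimum, at 23.0 and 55.6 units. MAPK3 read 349 and 271 units and MAPKAPK3 1078 and 1211 units. Anti-inflammatory mediators also held no 2-fold difference in 7 genes, with ZFP36, which destabilizes cytokine mRNA, at 2337 and 1325 units.

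Most complement genes at the minimum signal lay above control in the border zone. Of 14 such genes, 3 were at least 2-fold higher and none lower, 11 lay above control and the median log2 ratio was 0.45. Of all genes, 2.31% were 2-fold higher and 52.8% above control. C3, the central component of the cascade, read 9571 units with myoblasts and 3647 in control, 2.62-fold higher. C7, part of the membrane attack complex, read 5466 and 1860 units on its brightest probe set and 646 and 271 units on the other. C4A read 811 and 396 units, just past 2-fold. CLU (clusterin), an inhibitor of the attack complex, had the lowest ratio of the 14 at 2650 and 4595 units. The summed signal of the 14 was 63693 and 43005 units. Over all 21 complement genes measured, 2 were at least 2-fold lower and the median log2 ratio was 0.24.

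Markers of macrophages and monocytes had a median log2 ratio of 0.50. Of 16 at the minimum, 2 were at least 2-fold higher and none lower on their brightest probe sets, and 12 lay above control. Apart from ALOX5AP, the integrin ITGB2 read 205 units with myoblasts and 87.0 in control, the latter under the minimum. TYROBP, an adaptor of myeloid receptors, read 940 and 499 units. The scavenger receptor CD163 read 1053 and 1330 units on its brightest probe set and 251 and 1149 units on the other. Its mean over both was more than 2-fold lower. GPNMB read 3576 and 4432 units. ITGAM (CD11b) had signals of 9.21 and 39.4 units on one probe set and 30.9 and 9.51 on the other, so it gave no usable direction. Summed signals were 26001 and 21828 units, a ratio of 1.19.

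Markers of T cells, NK cells and neutrophils were scarcely detected. Of 17 T and NK cell markers measured, none reached the minimum, with CD3E at 60.4 and 56.7 units and CD8A at 96.1 and 116 units. Of 10 neutrophil markers, TCN1 alone reached it, while S100A8 read 35.7 and 39.0 units and S100A9 112 and 57.4 units. Of 4 B and plasma cell genes, 2 reached the minimum. JCHAIN, the joining chain of secreted antibodies, read 1245 and 775 units and XBP1 3453 and 3013 units.

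Antigen presentation and interferon genes had few 2-fold differences. In MHC class II, 1 of 11 genes was higher. IFI30, a lysosomal reductase that prepares antigens and is also on the interferon list, read 1147 units with myoblasts and 487 in control. CD40 read 254 and 135 units. In MHC class I, SLA-3 alone of 12 was 2-fold apart, with SLA-6 at 1756 and 972 units, SLA-2 at 4578 and 2908 units and beta-2-microglobulin (B2M) at a log2 ratio of -0.03. Class I genes of pigs are close in sequence and variable between animals, so the probes of 1 gene may read others. Of 21 interferon response genes, IFI30 alone was past 2-fold and the median log2 ratio was 0.12. IRF9 read 517 and 345 units, and RSAD2 434 and 525 units.

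Endothelial markers had a median log2 ratio of 0.15, and 14 of 18 lay above control. FABP4, a fatty acid carrier of capillary endothelium and fat cells, was the 1 marker past 2-fold, at 5490 units with myoblasts and 1727 in control. The adhesion molecule VCAM1 read 5747 and 3618 units. AQP1, a water channel of capillaries, read 3101 and 6159 units, just short of 2-fold. SELE (E-selectin), which endothelium makes when activated, and RBP7 averaged below the minimum because their control signals were very low. SELE read 200 and 5.09 units and RBP7 174 and 10.3 units. In the infarct zone, the same pair read 176 and 1.89 units and 379 and 6.10 units.

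Coagulation genes were split, with 1 of 10 higher, 1 lower and a median log2 ratio of -0.07. TFPI2, an inhibitor of matrix-degrading proteases, read 7655 units with myoblasts and 3213 in control, and A2M was the gene that was lower. The receptor F2R read 3058 and 4954 units and tissue factor (F3) 513 and 946 units. Of 11 hypoxia and angiogenesis genes, ANGPT1, a ligand that stabilizes vessels, was 2-fold higher at 258 and 116 units. VEGFA read 3503 and 3638 units and NOS3, the endothelial nitric oxide synthase, 124 and 174 units.

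Heart muscle genes lay below control as a group, by small amounts. Of 20 cardiomyocyte markers measured, all at the minimum signal, 18 lay below control, with a median log2 ratio of -0.24. NPPA was the 1 marker past 2-fold, and it was higher. Troponin T (TNNT2) read 22651 units with myoblasts and 29620 in control, cardiac actin (ACTC1) 22786 and 30899 units and the calcium store protein CASQ2 562 and 1027 units. MYH7, the slow myosin heavy chain, and ATP2A2, the calcium pump SERCA2, had log2 ratios of -0.02 and 0.00. The summed signal of the markers was 321695 and 370592 units, a ratio of 0.868.

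A further look at 3 genes of atrial muscle on the cardiomyocyte and calcium lists, grouped after their values were seen, gave 1 past 2-fold. The 3 were among the few genes of these lists above control. Below control lay 18 of 20 cardiomyocyte markers and 15 of 17 calcium handling and ion channel genes. NPPA was 4.24-fold higher. MYL4, the atrial essential myosin light chain, read 1901 units with myoblasts and 1120 in control, 1.70-fold higher. SLN (sarcolipin), which restrains the calcium pump in atrial muscle, read 1833 and 931 units, just under 2-fold. In the infarct zone MYL4 read 331 and 719 units and SLN 161 and 997 units, both on the other side of control.

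Natriuretic peptide and cardiac stress genes held 1 rise and 4 falls at 2-fold among 17. NPPA gave the rise, whereas NPPB, the ventricular natriuretic peptide, read 10922 units with myoblasts and 13836 in control. The falls were in ABRA, the stress-induced transcription factor ATF3 (551 and 1693 units), the actin-binding protein XIRP1 of intercalated discs (1424 and 3056 units) and the small heat shock protein HSPB3 (1088 and 2293 units). Of these 17 genes, 13 lay below control. For heat shock proteins and chaperones, 17 of 24 lay below control, with 1 past 2-fold. HSPA2 read 330 and 722 units, and HSPA6 243 and 151 units.

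Several sarcomere genes were 2-fold lower besides MYOM1. They belong to no list and were picked after their values were seen. MYOM2, a second M-band protein, read 6617 units with myoblasts and 13524 in control. NEB (nebulin) of the thin filament read 1261 and 2771 units, TRIM55, a ubiquitin ligase of the sarcomere, 1841 and 4581 units, and KLHL41, which stabilizes nebulin, 2934 and 6901 units. DMD (dystrophin), which ties the cytoskeleton to the membrane, read 186 and 479 units.

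Calcium handling and ion channel genes had a median log2 ratio of -0.29, and 15 of 17 lay below control. KCNIP2, a subunit of the channel for the transient outward potassium current, read 4477 units with myoblasts and 9519 in control, 2.13-fold lower. KCNQ1, of the slow delayed rectifier, read 102 and 208 units. Phospholamban (PLN) read 14720 and 16883 units and the ryanodine receptor RYR2 2051 and 2558 units. None of the 17 was 2-fold higher.

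Genes of oxidative phosphorylation, the respiratory chain and ATP synthase of mitochondria, lay below control by a small step. Of 35 measured, 33 lay below control, none was 2-fold apart and the median log2 ratio was -0.39, the lowest of all lists. NDUFV1, NDUFS1 and SDHA had the lowest ratios, at 1340 and 2255 units, 2697 and 4338 units and 5954 and 9327 units. The 2 genes above control were CYCS (cytochrome c), at 6381 and 4648 units, and NDUFA2, at 4223 and 3860 units. Summed signals were 297018 and 380602 units. The cardiomyocyte markers, which lie in the same cells, were also below control on this array, and the part of cell mixture in the shift was not tested.

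PPARGC1A, the coactivator that drives mitochondrial gene expression, read 829 units with myoblasts and 2403 in control, 2.90-fold lower. It is counted with the fatty acid genes, of which 2 of 30 were higher, 2 lower and 18 below control. The second fall was LPL, which frees fatty acids from lipoproteins, at 2475 and 5444 units on its brightest probe set and 417 and 876 on the other. CPT1A, the carnitine transferase of liver type, read 1446 and 608 units, and its muscle relative CPT1B 1008 and 1371 units. In glycolysis, 1 of 19 genes was past 2-fold: PDHA1, which feeds pyruvate into the citric acid cycle, read 1351 and 2744 units. The glucose transporter SLC2A3 read 2899 and 1729 units and hexokinase HK1 2133 and 3683 units.

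Immediate early genes, which are switched on within minutes of a stimulus, differed among themselves. Of 21 at the minimum signal, 1 was at least 2-fold higher and 5 lower, and 12 lay above control. IER2 was the rise, at 1147 units with myoblasts and 551 in control, and FOSL2, EGR1 and FOS lay between 1.5-fold and 2-fold above control. EGR1 read 4690 and 2440 units and FOS 11892 and 6870 units. The falls were in NR4A3, ATF3, RHOB (1960 and 5772 units), IER3 (456 and 1332 units) and IER5 (1293 and 3695 units). RHOB's dimmer probe set read 132 and 146 units, and its mean over both was under 2-fold.

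Of 10 cell cycle genes at the minimum signal, 3 were at least 2-fold lower and none higher, beside 1.74% of all genes lower. The 3 were RRM2B, cyclin D2 (CCND2, 1324 and 3209 units) and RACGAP1 of cytokinesis (115 and 240 units). RRM2B and RACGAP1 had myoblast signals under 128 units, so both entered the comparison through the control array. With signals floored at each array's median, RACGAP1 was under 2-fold. PCNA, the replication clamp, read 641 and 594 units. Over all 23 cell cycle genes measured, 2 were at least 2-fold higher and 5 lower. The median log2 ratio was then 0.05, against -0.23 for the 10. Of 11 apoptosis genes, 10 lay above control but CASP6 alone was past 2-fold, at 716 and 284 units. Of 24 antioxidant genes, the secreted glutathione peroxidase GPX3 was higher (379 and 174 units) and the metallothionein MT3 lower (221 and 549 units).

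The cytosolic ribosomal protein genes had close signals on both arrays. Among 49, none was 2-fold apart, the median log2 ratio was -0.01 and the range ran from -0.24 to 0.26. The same genes had a median of -0.17 in the infarct zone. They do not stand for bright probe sets at large, since of the 813 with a mean signal of 4096 units or more, 3.94% were 2-fold apart.

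Most transcripts of skeletal muscle, the lineage of the transplanted cells, were below the minimum signal. Of 20 skeletal muscle and myoblast genes measured, 5 reached the minimum, and most of those are also used by the heart. TNNT1, the slow skeletal troponin T, was 2-fold higher at 11481 units with myoblasts and 5520 in control. MYL1 read 3115 and 4445 units, and NCAM1 497 and 539 units. The myogenic factors MYOD1, MYF5 and MYF6 read 7.64 and 45.3, 3.35 and 17.5, and 32.5 and 27.1 units, and PAX3 read 43.6 and 2.81 units.

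Other cell types were represented by few genes. Of 8 adipocyte markers, FABP4 was higher and LPL and GPD1 were lower, and ADIPOQ was below the minimum at 22.2 and 28.6 units. Of the bone and cartilage genes, 4 of 11 reached the minimum, with COMP and ACAN higher. COL2A1, the main cartilage collagen, was lower at 92.2 units with myoblasts and 193 in control. The signals of ACAN in control and of COL2A1 with myoblasts were under the minimum. SOX9, the regulator of cartilage genes, was below it at 31.2 and 7.36 units. Hemoglobin beta (HBB) read 1407 and 815 units and HBM 263 and 122 units. The nerve and Schwann cell genes UCHL1, MBP and S100B had log2 ratios of 0.71, 0.57 and 0.41. KRT8, the 1 epicardial gene at the minimum, read 496 and 518 units.

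The infarct zone was measured on separate arrays, and its ratios are given beside those of the border zone without a test of the difference. Whether the same minipigs gave both tissues is not stated. In the infarct zone, 340 of 12379 probe sets (2.75%) were at least 2-fold higher with myoblasts and 248 (2%) lower. Of the 331 probe sets higher in the border zone, 124 (37.5%) were also 2-fold higher in the infarct zone and 275 (83.1%) lay above control there. Of the 283 lower ones, 104 (36.7%) were 2-fold lower and 264 (93.3%) lay below control. Over all 12373 probe sets, the sign was the same in both zones for 67.3%. The 2-fold lists of both zones, each at its own minimum signal, shared 114 rises (34.4% of the border and 33.5% of the infarct list) and 101 falls (35.7% and 40.7%).

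Rises past 2-fold in both zones included immune genes, LOX and DDC. In the infarct zone, DDC read 2854 units with myoblasts and 218 in control, CCL2 3041 and 540 units, CXCL2 4747 and 556 units and LOX 2429 and 358 units. C3 read 10466 and 3637 units there and NPPA 4218 and 1246 units. Among the falls, RRM2B read 82.3 and 678 units, NR4A3 440 and 2208 units, SLA-3 194 and 914 units, ABRA 1517 and 5577 units and MYOM1 3190 and 11695 units. In all 5, both myoblast arrays lay below both control arrays. Some array controls divided the same way. The 28S probe set read 8477 and 10230 units on the myoblast arrays and 15770 and 15983 on the control arrays. The EF1a ratio of 3' to 5' signal was 3.01 and 2.49 beside 4.17 and 4.13, whereas that of GAPDH did not divide so. Treatment and such differences between arrays cannot be told apart in either zone.

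Many matrix genes had a higher ratio in the border than in the infarct zone. COMP read 359 units with myoblasts and 468 in control in the infarct zone, so the border zone array with myoblasts stood alone among 4. COL8A1 read 1624 and 1613 units there, ACAN 26.4 and 45.2 units and TNC 575 and 250 units. Fibrillin-1 (FBN1) read 15070 and 10431 units in the border zone and 6018 and 11904 units in the infarct zone, and LOXL1 3420 and 2464 units and 1002 and 2200 units. The border ratio exceeded the infarct ratio for 16 of 19 matricellular genes and 10 of 11 small proteoglycan and hyaluronan genes. Over all 4941 genes, it did so for 50.4%. It did so for 45 of 49 cytosolic ribosomal protein genes as well, so the excess is not particular to matrix genes. Among the small proteoglycan and hyaluronan genes, none of the 11 lay above control in the infarct zone, where the median log2 ratio was -0.52. Fibroblast markers, which share genes with these lists, had a median of -0.30 there, and their summed signal was 99231 units with myoblasts and 128180 in control.

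The 2-fold probe sets were chosen by the border zone arrays, so that 1 of these is often the most extreme of the 4 follows in part from the choice, and the counts are a description. Of the 331 higher probe sets, the myoblast border array was the highest of all 4 for 252 and the control border array the lowest for 163. The former was at least 2-fold beyond every other array for 70 and the latter for 5. For 85, both myoblast arrays were at least 2-fold above both control arrays. Of the 283 lower ones, the myoblast border array was the lowest for 235 and the control border array the highest for 156, at least 2-fold beyond all others for 27 and 3. For 81, both myoblast arrays were at least 2-fold below both controls. Over all 4941 genes, the border ratio was at least 2-fold above the infarct ratio for 111 (2.25%) and at least 2-fold below it for 65 (1.32%). TYR read 54.2 and 63.0 units and PDYN 47.6 and 71.3 units in the infarct zone, and ALOX5AP 292 and 256 units.

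**Figure D5:**
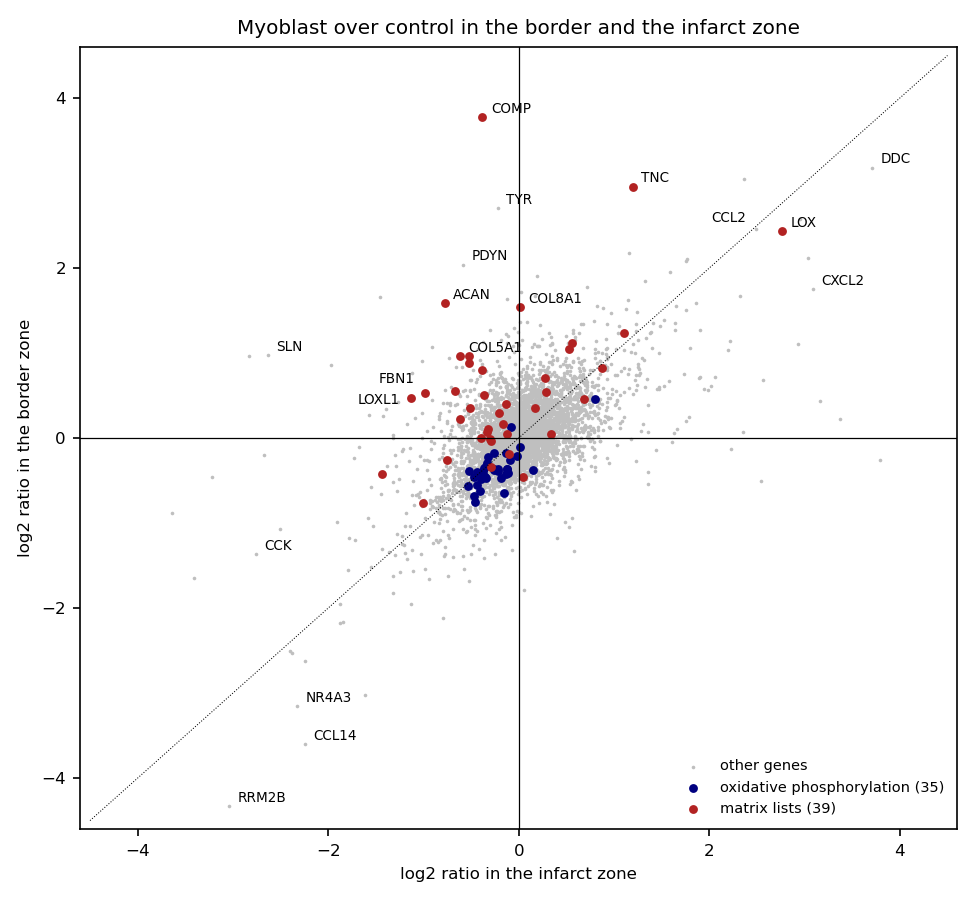
Log2 ratio of myoblast over control in the border zone (y) against the infarct zone (x) for 4941 genes, each a point. Red points are the 39 genes of the matrix lists, blue points the 35 of oxidative phosphorylation, and the dotted line marks equal ratios. COMP, ACAN and COL8A1 lie high above the line with infarct ratios near or below 0, while DDC, CCL2, LOX and CXCL2 are high in both zones and 33 of the 35 blue points lie below 0 in the border zone.

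Where a gene has more than 1 probe set at the minimum signal, they can be set against each other. This held for 929 genes, of which 23 were past 2-fold on the brightest probe set. All other probe sets of these 23 pointed the same way, at least 1 was also past 2-fold for 10 genes, and every one was for 7, among them C7, CDH11, LPL and SLC3A1. Agreement was not counted for the rest of the 929 genes, where probe sets could lie far apart. CRYAB, for example, had log2 ratios of -0.21 on its brightest probe set and -2.52 on the other.

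A large part of the difference lay in probe sets without a gene symbol. Of the 6129 at the minimum signal, 193 (3.15%) were at least 2-fold higher and 157 (2.56%) lower, beside 137 (2.24%) and 122 (2.0%) of those with a single symbol. The widest ratio in the comparison was among them. It belonged to a probe set that read 966 units with myoblasts and 13 in control, 74.3-fold higher, and 12.9 and 20.5 units in the infarct zone. Among bright probe sets without a symbol, the highest ratio was at 9669 and 781 units, and the lowest at 632 and 9662 units. The latter was low on both myoblast arrays, at 1208 units beside 9161 in the infarct zone.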

How the data were processed

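RNA of border and infarct zone heart tissue was measured on 4 Porcine Genome Arrays, 1 per group. Per the labels, the authors processed the arrays with MAS5, an algorithm that corrects for background and brings arrays to a shared mean, and the deposited values are log2 signals. They were used as deposited and converted to linear units for the minimum signal and for printing. No genome build is named, and 0 columns were set aside.

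The control value was subtracted from the myoblast value of the border zone for each of 23999 probe sets, in Python 3.11.15 with numpy 2.4.6 and pandas 2.3.3. Those with a mean signal of at least 128 units were kept and called at 2-fold, the threshold of the study's methods. With 1 array a group, no test, error or p-value exists, and array number limits the precision. Gene symbols are those of the platform annotation, which can be old. Of 6115 single-symbol probe sets, 6054 matched a reference gene ID, with 0 symbols changed. A gene was read from its brightest probe set. Probe sets with the suffix a (594), s (120) or x (13) may bind several transcripts.

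The genes named are the 15 largest rises and falls, the 3 largest of either sign in each of 41 lists, 12 genes of the inflammatory and scar response, and defining markers below the minimum. Other genes were picked after their values were seen: those so marked in the text, and the list genes THBS1, THBS2, FN1, FBN1, LOXL1, COL1A2, MMP2, MMP9, MMP13, CXCL8, S100A4, B2M, TNNT2, MYH7, NPPB, HSPB3, PLN, RYR2, CPT1B, FOS, IER3, IER5 and PCNA. The comparison and the lists (27 pathways and 14 cell types, from general knowledge) were chosen with earlier results of these data known. The subtraction and counting were tested on simulated data. Promoter motifs were not analysed here. Alternatives were the minimum signal, the fold threshold, quantile normalization, median centring, a floor at each array's median and the mean over a gene's probe sets.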

Additional observations from a re-analysis of the deposited data

Results flagged for a closer look

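For 23 genes, 19 of the 114 higher and 4 of the 86 lower, the border zone ratio was at least 2-fold while the infarct zone ratio lay on the other side of control. The difference between the zones was not tested, since each ratio rests on 1 array a side. Over control in the border zone, the log2 ratios were 3.78 for COMP, 2.71 for TYR, 2.04 for PDYN, 1.58 for ACAN, 1.25 for TFPI2, 1.12 for GPX3, 1.11 for HBM and -1.79 for NEK3. In the infarct zone, they were -0.38, -0.22, -0.58, -0.78, -0.01, -0.01, -0.12 and 0.06 in the same order, so for TFPI2, GPX3 and NEK3 the opposite sign is that of a value close to 0. For LOXL4 and FNDC1 they were 1.63 and 1.28 in the border and -0.13 and -0.30 in the infarct zone. SPOCK3 (1.65 and -1.45) and SHROOM2 (1.07 and -0.91) had the lowest infarct zone ratios among the 19. Of the others that were higher, the border zone values were 1.30 for MXRA8, 1.22 for SLC25A14, 1.20 for VSTM4, 1.16 for ZNF513, 1.14 for RAI14, 1.09 for ISLR, 1.05 for RASL11B and 1.01 for GLB1L, with infarct zone values from -0.43 to -0.04. Of those that were lower, CFAP73 had -1.33 and 0.58, MAP1B -1.18 and 0.40 and POC5 -1.04 and 0.53. The control border signals of TYR (42.1 units), ACAN (87.7 units) and HBM (122 units) were under the minimum of 128 units. Those of SPOCK3 (75.2 units), SHROOM2 (99.1 units) and SLC25A14 (79.3 units) were under it as well, as was the myoblast border signal of NEK3 (104 units). In the infarct zone, SPOCK3 read 28.9 units with myoblasts and 79.1 in control, and SHROOM2 60.7 and 114 units, all under the minimum.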

How the results depend on the processing

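The counts of 2-fold differences followed the minimum signal and the threshold. Against 331 probe sets higher and 283 lower, there were 2364 and 2504 without a minimum signal, 215 and 171 at 256 units, 134 and 102 at 512 units, 1137 and 1060 at 1.5-fold, 31 and 23 at 4-fold, and 114 and 86 counted as distinct gene symbols. With both arrays required to reach the minimum, 225 were higher and 179 lower. Quantile normalization gave 312 and 309. Of the 62 genes past 2-fold that the naming rule gives, 0 changed sign under the alternatives run. With signals floored at each array's median, 11 were under 2-fold, among them TCN1 (log2 0.73), TYR (0.99), ACAN (0.92), FCN2 (0.65) and PYROXD1 (-0.95). The others were ANGPT1, COL2A1, HBM, ITGB2, KCNQ1 and RACGAP1. C4A was under 2-fold after quantile normalization, and DUSP6 and RHOB were on the mean over probe sets, whereas ACTG2 (0.72 on its brightest probe set) was past it at 1.68. CD163 had a log2 ratio of -1.27 on that mean, against -0.34 on its brightest probe set. With all measured genes in place of those at the minimum, the median of the Toll-like receptor list was 0.05 and that of coagulation 0.26. The complement median was then 0.24 and that of the cell cycle list 0.05. The macrophage and monocyte median was 0.57 with all measured genes and 0.56 on the mean over probe sets, above the matricellular median of 0.53 in both. No paired analysis was possible because each border zone group has 1 array and the labels carry no replicate numbers. A fit over both zones with zone as a block would test another comparison, the effect shared by the zones, and was not run.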
